A study of Mus musculus with 24 samples.

Results

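Synaptic vesicle and release genes were followed across 8 tissues of SENCR-BAC transgenic mice, which carry a bacterial artificial chromosome with the human long noncoding RNA gene SENCR. The set comprised every row of the expression table whose symbol begins as a synaptotagmin, synapsin, synaptophysin, synaptogyrin, synaptojanin, SNAP, syntaxin, syntaxin-binding, VAMP, complexin, RIM, Munc13, SV2, neurexin, neuroligin or synuclein gene does, or names NSF, a dynamin, an AP-2 or AP-3 subunit, bassoon, piccolo, ERC1 or ERC2. This rule found 71 of the 7493 genes in the table. Bulk RNA-seq was done on brain, aorta, heart, kidney, liver, lung, spleen and stomach, with 3 libraries per tissue and 24 in all. Each group is that tissue of the transgenic mouse, and all 8 groups carry the transgene. Libraries from mice without SENCR were not analysed here, so tissues are compared with each other and nothing is compared with a wild type. The labels give no strain, age or sex, and the library names carry a code, SR-KI, that they do not explain. The rule works on names alone, so it also takes in relatives with work outside the synapse, such as STX5 and STX17, VAMP7, the AP-3 coat and UNC13D.

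At a nerve terminal, transmitter is packed into vesicles that dock at the active zone, where scaffolds such as bassoon, piccolo and the RIM proteins hold them beside calcium channels. When calcium enters, synaptotagmin acts on a bundle formed by the vesicle SNARE (a VAMP) and the target SNAREs (SNAP25 and a syntaxin), and the membranes fuse. NSF then takes the bundle apart, and clathrin with the AP-2 adaptor, dynamin and synaptojanin retrieve the membrane, while neurexins and neuroligins join the terminal to the receiving cell.

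Promoter sequence shows what stands upstream of the genes that carry the main results. RefSeq windows on the mouse build GRCm38.p6, the 250 bases before an annotated start, were matched by symbol for 54 of the 71 members, in 69 windows. Among the members without a window were SNAP25, VAMP2, NRXN2, SYT7, AP3S1 and VAMP7. Printed here are 4 of the windows, 5′ to 3′ on the gene's strand, which is minus for each, with matches to the motifs searched in capitals. SYN1 is shown as a vesicle gene of brain, SYT1 as the calcium sensor and brain marker, DNM1 as the endocytosis gene with the largest brain difference, and AP3M1 as a coat gene whose highest tissue was liver.
SYN1, chrX:20920919-20921168: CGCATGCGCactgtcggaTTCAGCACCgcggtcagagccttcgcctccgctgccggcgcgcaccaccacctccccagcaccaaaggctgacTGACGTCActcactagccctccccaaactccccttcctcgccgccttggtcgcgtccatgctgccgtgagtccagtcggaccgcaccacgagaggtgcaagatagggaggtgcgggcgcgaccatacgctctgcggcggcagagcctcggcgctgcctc
SYT1, the second RefSeq start, chr10:109010976-109011225: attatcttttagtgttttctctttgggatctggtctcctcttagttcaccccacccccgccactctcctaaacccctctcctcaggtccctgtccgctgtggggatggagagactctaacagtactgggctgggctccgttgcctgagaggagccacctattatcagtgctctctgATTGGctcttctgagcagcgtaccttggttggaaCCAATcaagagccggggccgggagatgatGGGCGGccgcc
DNM1, chr2:32353330-32353579: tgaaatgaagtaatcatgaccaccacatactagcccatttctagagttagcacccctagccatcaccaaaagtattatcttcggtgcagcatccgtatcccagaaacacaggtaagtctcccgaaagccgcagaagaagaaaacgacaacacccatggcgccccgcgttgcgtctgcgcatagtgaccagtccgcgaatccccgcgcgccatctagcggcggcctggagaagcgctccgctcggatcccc
AP3M1, chr14:21052443-21052692: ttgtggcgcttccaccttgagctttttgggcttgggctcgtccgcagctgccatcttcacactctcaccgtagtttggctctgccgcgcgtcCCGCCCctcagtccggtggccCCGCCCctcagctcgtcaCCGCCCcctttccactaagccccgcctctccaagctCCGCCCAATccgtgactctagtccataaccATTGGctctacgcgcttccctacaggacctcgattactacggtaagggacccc
The SYN1 window held 3 motifs, from its far end inward: the NRF1 core GCGCATGCG on the opposite strand, TTCAGCACC (the left part of the RE1 element, which the repressor REST binds) and the cAMP response element TGACGTCA. The printed SYT1 window held 2 CCAAT boxes, 1 of them on the opposite strand as ATTGG, and 1 GC box GGGCGG within its last 11 bases. Its start is second by coordinate, which on the minus strand lies upstream of the other. The other SYT1 window, which is not printed, held none of the 6 motifs. None of the 6 motifs stood in the DNM1 window. In AP3M1 there were 4 GC boxes on the opposite strand, as CCGCCC, and 2 CCAAT boxes, 1 of which shares bases with a GC box.

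Both strands were searched in all windows. TTCAGCACC stood in 2 of the 69 member windows, those of NLGN1 and SYN1, and in 0.301% of all 32851 RefSeq windows. The NRF1 core was in 4 member windows, BSN and SYN1 among them, and in 1.45% of all windows, and TGACGTCA in 3, AP2B1 and SYN1 among them, and in 1.55%. A GC box stood in 38 member windows (55.1%), a CCAAT box in 18 (26.1%) and TATAAA in 3 (4.35%), beside 32.7%, 33.8% and 12.4% of all windows. A match is only a run of letters, and a window without one says nothing about the factor.

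The values are FPKM, read numbers scaled by gene length and by the assigned reads of the library. The submitters' processing notes name a human genome build for these mouse libraries, and the table has human symbols, but whether the reads were counted on human genes alone or on a joint mouse and human reference is not stated in the labels. Counted on human genes, genes alike in both species would keep more of their reads than genes that differ, so each gene was compared with itself across tissues and not with other genes. Read numbers recovered from the FPKM steps gave 193900 to 642307 assigned reads per library, with brain among the deepest and liver the shallowest. Most labelled tissues showed a marker: MYH6 in heart at 5955, 4798 and 5630.4 FPKM, HAO1 in liver at 1985, 1766 and 2063, NKX2-1 in lung at 216, 207 and 225, KCNJ1 in kidney at 1933, 954 and 1606, ACTA2 in aorta at 53.3, 47.6 and 44.04 and IKZF1 in spleen at 30.1, 26.7 and 34.0. NKX2-1 was the 1 lung marker of 5 listed that the table held. Stomach was marked poorly, with 2 of 6 listed gastric markers in the table. ATP4A, at 0.918, 4.85 and 1.99 there, was too low to test. SOX2 was called higher in brain than in each other tissue, and higher in stomach and lung with brain left out. Other defining markers were at or near 0 in their tissue, such as ALB in liver at 0, 0 and 2.26 and GFAP in brain at 0.257, 0 and 0.251. The 10 neuronal markers outside the gene set (RBFOX3, MAP2, TUBB3, ELAVL3, ELAVL4, STMN2, NEFL, NEFM, GAP43 and GRIA2) were all higher in brain than in each of the other 7 tissues, with a summed level of 1582 to 1828 FPKM there.

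Of the 71 members, 44 reached 1 FPKM in at least 3 of the 24 libraries and were tested, in 1 limma fit over all 4260 genes that did so. A gene was called where the Benjamini-Hochberg adjusted p was under 0.05 and the difference in log2(FPKM + 1) was at least 1. Brain was higher than the mean of the other 7 tissues for 32 of the 44 members (72.7%), beside 23.9% of all genes tested. No member was called lower in brain, beside 10.5% of all genes. Only 1, AP3M1, had an unadjusted p under 0.05 in that direction, and voom on the recovered reads called 2, STX5 and UNC13D, lower. Of the 44, 17 passed the filter only with the brain libraries counted: VAMP1, NSF, STXBP5L, STXBP6, SYT6, SYT9, RIMS1, RIMS2, RIMS3, BSN, ERC2, SYN2, SYNGR1, SYP, SNAP91, NRXN3 and NLGN1. The filter favours a brain difference in these, so their calls and p-values describe them and support no count. All of them but STXBP6 were called higher in brain. For the 27 members that reached the minimum in at least 3 libraries of the other tissues, 16 were higher in brain (59.3%), beside 17.6% of the 3864 genes that did likewise. The median brain difference was 1.93 over these 27 members and -0.138 over those 3864 genes, beside 2.98 over the 44 and -0.0244 over all genes tested. In bulk tissue, fewer neurons and less RNA per neuron cannot be told apart.

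For 32 of the 44 members tested, the lowest brain library stood above every one of the 21 other libraries, beside 15.4% of all genes tested. These are the same 32 that were called higher in brain. Of the 27 members that reached the minimum without brain, 16 were separated in this way, beside 8.77% of such genes. For the 16 others the filter favours this separation, so it is a description. In pairwise contrasts 30 of the 44 members were called higher than each of the other 7 tissues taken alone, beside 13.2% of all genes. Of these 30, 16 passed the filter through brain alone. Among the 27 that did not depend on it, 14 were called higher than each other tissue (51.9%), beside 6.29% of such genes. The other two of the 32 were AP2B1 and VAMP4. No member was called lower in brain than in each other tissue, beside 1.17% of all genes. For that comparison no member had an unadjusted p under 0.05 in all 7 contrasts, and voom called none. The members together took 3.07% to 3.48% of the assigned reads in brain and 0.125% to 0.258% in the 21 other libraries. With SNAP25 left out, brain stood at 1.67% to 1.9%.

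**Figure D1:**
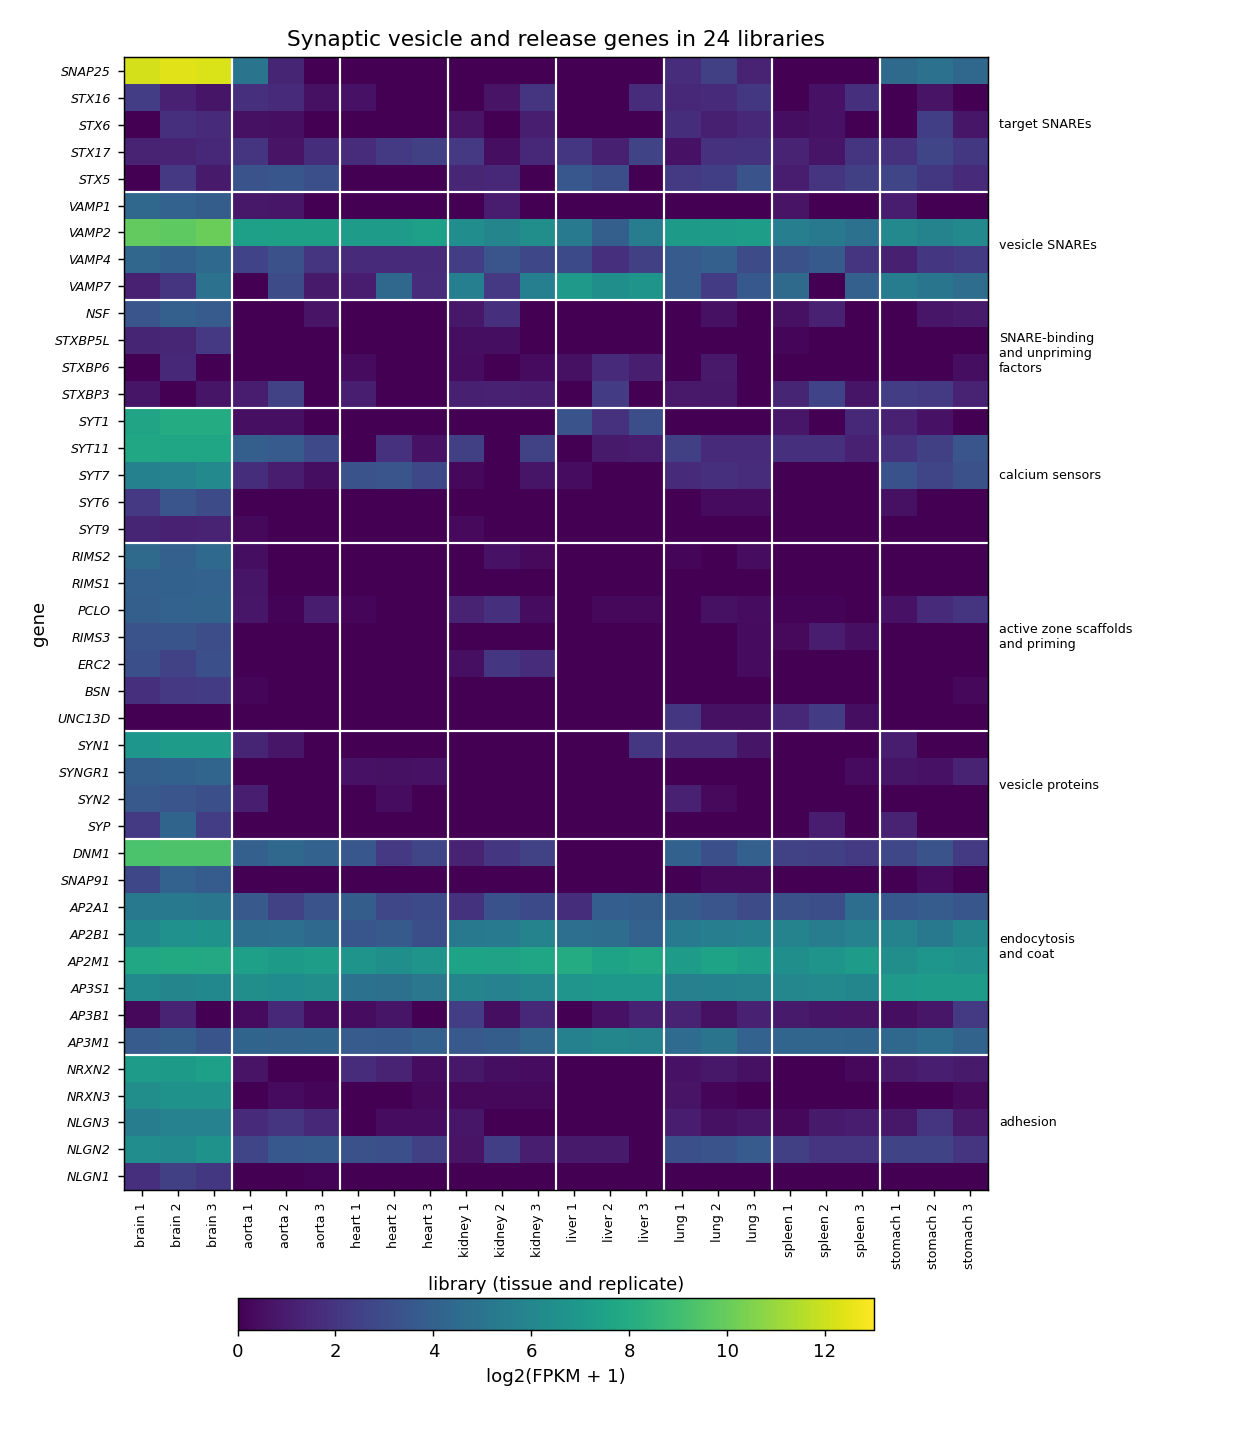
Colour gives log2(FPKM + 1) for 42 of the 44 tested members (rows, grouped by role) in each of the 24 libraries (columns, grouped by tissue). The 3 brain columns are brighter than all others for 30 genes, while AP2M1, AP3S1, AP3M1 and VAMP7 are as bright or brighter in other tissues.

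Among the target SNAREs, SNAP25 was the one member called in brain, of 5 tested and 12 in the table. SNAP25, a core of the synaptic SNARE bundle on the plasma membrane side, was at 4572, 5378 and 4931 FPKM in the brain libraries, on 27743 reads. Stomach followed at 21.2, 28.4 and 19.3, then aorta at 31.4, 1.51 and 0 and lung at 2.12, 4.59 and 1.35. It was listed at 0 in all libraries of heart, kidney, liver and spleen, where 3 reads in a library would have given 1.61 to 2.54 FPKM in spleen and 4.55 to 5.04 in liver. Brain exceeded every other library by far, and its mean was 216 times that of stomach. The brain difference was 11.06 (SE 0.55) in log2(FPKM + 1), with an adjusted p of 3.64e-13. Aorta and lung overlapped, and aorta replicate 1 alone lay above the stomach libraries.

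The 4 other target SNAREs tested are syntaxins of internal membranes, and none was called in brain. STX5, which acts in traffic between the endoplasmic reticulum and the Golgi, was at 0, 3.39 and 0.918 FPKM in brain and ran from 0 through a median of 3.28 to 10.4 in the other libraries. Its difference was -0.84 (SE 0.53), adjusted p 0.213, on 64 reads in all. STX17, a syntaxin of autophagosome fusion, was above 0 in all 24 libraries and at 1.34, 1.42 and 1.75 FPKM in brain, within the range of the others (from 0.406 through a median of 2.67 to 5.48). For these genes brain and the other tissues overlapped. STX16 and STX6, both of the trans-Golgi network and endosomes, were at 4.18, 1.26 and 0.682 and at 0, 2.52 and 2.05 FPKM in brain, with other libraries reaching 3.36 and 4.27.

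The remaining target SNAREs, plasma membrane syntaxins among them, were barely counted. STX1A, the neuronal partner of SNAP25, was above 0 in 2 of 24 libraries, aorta replicate 3 (0.873 FPKM) and stomach replicate 1 (1.24), on 1 read each. No difference in STX1A was detectable at this depth. STX3 had 13 reads in 6 libraries, up to 1.27 FPKM in brain replicate 2, and STX4, another syntaxin of the plasma membrane, had 1 read. The endosomal syntaxins STX7 and STX12 had 3 and 4 reads. SNAP23, the relative of SNAP25 in other cells, had 2 reads, 1 in liver and 1 in spleen.

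Of the 4 vesicle SNAREs tested, 3 were higher in brain, among which VAMP1 passed the filter through brain alone. VAMP2 (synaptobrevin-2), the main vesicle SNARE of fast release, was at 926, 886 and 1096 FPKM in brain and ran from 14.5 through a median of 82.4 to 167 elsewhere. No other library came near the brain values, though VAMP2 was above 0 in every library, and brain exceeded aorta, the next tissue, 5.90-fold by the means. VAMP1, used at the neuromuscular junction and in spinal cord and brainstem, was at 19.7, 15.9 and 13.4 FPKM in brain and above 0 in 5 of the 21 other libraries, none over 1.09. The differences were 3.60 (SE 0.21) for VAMP2 (adjusted p 4.58e-12) and 3.89 (SE 0.24) for VAMP1 (adjusted p 1.08e-11). VAMP4, which serves the trans-Golgi network and bulk endocytosis, was at 18.2, 15.1 and 20.8 FPKM in brain and 12.4, 14.7 and 7.21 in lung, so the lowest brain library lay just above the highest lung library. Its difference from the mean of the others was 1.70 (SE 0.34), and it was not called against lung, at 0.66 (SE 0.45, adjusted p 0.263).

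VAMP7, the SNARE of late endosomes and lysosomes, went the other way in level but was not called: 1.30, 2.94 and 29.3 FPKM in brain against 125, 88.0 and 103 in liver. The brain difference was -1.004 (SE 0.90), adjusted p 0.388. Brain replicate 3 lay far above the other brain libraries, and kidney, at 47.9, 3.54 and 47.9, had 1 library far below its others. VAMP8 was left with 1 read, in aorta replicate 1.

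Among SNARE-binding and unpriming factors, 3 of 5 tested were higher in brain. Of these, NSF and STXBP5L passed the filter through brain alone, so their values are a description. NSF, the ATPase that takes SNARE bundles apart, was at 9.94, 14.8 and 12.3 FPKM in brain and at most 2.35 elsewhere. Its brain libraries stood clear of the rest, with a difference of 3.37 (SE 0.28) and an adjusted p of 1.87e-09. STXBP5L, a tomosyn relative, was at 1.502, 1.65 and 3.46 FPKM in brain and above 0 in 3 other libraries, with a difference of 1.58 (SE 0.13, adjusted p 1.9e-09). STXBP3 (Munc18c) and STXBP6 (amisyn) overlapped between brain and other tissues, at 0.691, 0 and 0.677 and 0, 1.69 and 0 FPKM in brain and up to 5.22 and 2.02 elsewhere. The remaining relatives were not tested: STXBP2 and STXBP4 had 2 reads each, and STXBP5 35 reads spread over 14 libraries with no more than 1.16 FPKM in any.

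The calcium sensor class takes in synaptotagmins and complexins by name, whether or not they bind calcium. All 5 of its members tested were synaptotagmins higher in brain, among which SYT6 and SYT9 passed the filter through brain alone. SYT1, the sensor of fast synchronous release, was at 190.2, 258 and 259 FPKM in brain and ran from 0 through a median of 0 to 9.01 elsewhere. Liver held the highest other values, at 9.01, 2.63 and 7.77 FPKM on 21 reads, and brain exceeded liver 36.5-fold by the means. SYT1 was listed at 0 in all libraries of heart, kidney and lung. The brain difference was 7.23 (SE 0.30), adjusted p 1.56e-14.

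SYT11, a synaptotagmin that does not bind calcium and acts in endocytosis, was at 213, 199.8 and 209.5 FPKM in brain and up to 14.2 in aorta replicate 1, with a difference of 5.89 (SE 0.45, adjusted p 4.21e-10). SYT7, the high-affinity sensor of asynchronous release and of exocytosis in many cells, was at 52.1, 53.7 and 68.1 in brain and up to 9.65 in heart replicate 2. Its brain mean was 7.04 times that of heart, a smaller ratio than the one of SYT1 over liver, and the difference was 4.52 (SE 0.23, adjusted p 6.52e-13). SYT6 and SYT9 were nearly confined to brain in these libraries: 3.41, 9.73 and 6.93 FPKM and 1.53, 1.26 and 1.497 there, and above 0 in 3 and 2 of the 21 others. Their differences were 2.78 (SE 0.18) and 1.25 (SE 0.09). SYT12 and SYT14 had 8 and 15 reads, mostly in brain, SYT10 had 1 read in lung, and the complexin CPLX2, a clamp on the SNARE bundle, had 5 reads in brain and kidney. None of these was tested.

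Of the 7 active zone members tested, 6 were higher in brain, of which only PCLO passed the filter without the brain libraries. For RIMS1, RIMS2, RIMS3, BSN and ERC2 the values are therefore a description. RIMS2 and RIMS1, RIM proteins that tie vesicles to calcium channels, were at 21.8, 14.8 and 20.9 and 14.6, 15.6 and 15.8 FPKM in brain and at no more than 0.541 and 0.665 elsewhere. Their differences of 4.21 (SE 0.15) and 3.99 (SE 0.13) had adjusted p of 1.75e-15 and 3.1e-16. RIMS1 was above 0 in a single library outside brain, aorta replicate 1. The scaffolds piccolo and bassoon followed the same pattern, PCLO at 14.1, 15.8 and 16.8 FPKM and BSN at 2.37, 3.41 and 3.80 in brain. PCLO reached 0.580, 1.91 and 2.83 in stomach, whereas BSN had 2 reads outside brain. RIMS3 was at 9.06, 9.45 and 7.27 FPKM in brain, with a difference of 3.15 (SE 0.13), and ERC2 (CAST) at 8.09, 4.80 and 7.92, with a difference of 2.74 (SE 0.20). Outside brain ERC2 was highest in kidney, at 0.443, 3.21 and 2.11, which is below the lowest brain library.

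UNC13D (Munc13-4) primes secretory granules of blood cells, in place of the synaptic Munc13 proteins. It was listed at 0 in brain and in every library outside lung (3.19, 0.494 and 0.509 FPKM) and spleen (1.87, 3.82 and 0.403). ERC1, found in most cells, was above 0 in 12 libraries with up to 0.609 FPKM, and RIMS4 had 7 reads.

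The 4 vesicle proteins tested were all higher in brain and in no comparison among the other tissues. SYN1 (synapsin I), which holds vesicles in reserve, was at 114, 138 and 138 FPKM in brain and at most 3.21 elsewhere (liver replicate 3). SYN1 is the gene whose upstream window held 3 of the motifs searched. Synaptogyrin SYNGR1, at 14.6, 15.2 and 17.7, and synapsin SYN2, at 11.3, 9.62 and 8.01, were also clear of every other library in brain, and like SYP they passed the filter through brain alone. The differences were 6.60 (SE 0.34), 3.84 (SE 0.14) and 3.25 (SE 0.21), with adjusted p of 7.1e-13, 1.64e-15 and 2.81e-11. SYP (synaptophysin), the abundant vesicle membrane protein, was at 3.55, 17.3 and 4.17 FPKM, so brain replicate 2 lay far above the other two, with a coefficient of variation of 93.2% on 38 reads. Its difference was 2.81 (SE 0.30), adjusted p 9.6e-08, which is a description because of the filter. Across the 15 brain-higher members with at least 500 brain reads, that coefficient ran from 2.69% to 20.2%, with a median of 10.8%.

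Vesicle proteins also supplied members too low to test. SV2B had 54 reads, all in brain, at 0.870, 3.60 and 1.82 FPKM. SV2C had 7 reads, the synuclein SNCB 1 and SYNGR2 1.

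Endocytosis and coat genes were split, and 4 of the 8 tested were higher in brain, among which SNAP91 passed the filter through brain alone. DNM1, the dynamin of neurons that cuts vesicles from the membrane, was at 627, 657 and 657 FPKM in brain and ran from 0 through a median of 4.99 to 19.0 elsewhere, and its brain mean was 38.8 times that of aorta. SNAP91 (AP180), which sets the size of clathrin vesicles, was at 5.96, 16.01 and 12.7 in brain and above 0 in 3 other libraries, none over 0.316. The brain libraries were separate from all others for both, with differences of 6.79 (SE 0.27) and 3.51 (SE 0.17) (adjusted p 7.2e-15 and 2.58e-13). The large AP-2 subunits were raised less: AP2A1 was at 37.5, 36.8 and 33.2 FPKM in brain, with a difference of 1.93 (SE 0.39), and AP2B1 at 66.7, 93.3 and 99.7, with a difference of 1.43 (SE 0.17). AP2M1, the AP-2 subunit that reads cargo signals, was at 225, 238 and 233 in brain, with liver up to 255. Its difference of 0.72 (SE 0.12) had an adjusted p of 3.01e-05 but was under the minimum of 1. AP-2 also works at the surface of every cell, and these 3 subunits were above 0 in all 24 libraries.

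The AP-3 coat, which buds vesicles from endosomes, was not called in brain. AP3M1 was at 12.2, 14.3 and 9.24 FPKM in brain, and its difference of -0.74 (SE 0.17, adjusted p 0.00121) was smaller in size than the minimum. AP3S1, at 74.1, 58.8 and 66.7 in brain, lay inside the range of the other tissues (from 26.8 through a median of 63.8 to 140.5), with a difference of -0.07 (SE 0.09). AP3B1 had few reads (71 in all) and up to 4.08 FPKM, in kidney. The neuronal subunit AP3B2 was not tested, with 20 reads in the 3 brain libraries (0.718, 2.16 and 1.64 FPKM) and none elsewhere. SYNJ1 (synaptojanin-1), which strips the coat, was also under the minimum, at 1.65, 1.79 and 0.808 FPKM in brain and up to 0.316 elsewhere. AP3B2, SYNJ1 and SV2B were the members not tested in which every brain library lay above every other library. DNM2, AP2A2 and SYNJ2 had 3, 7 and 2 reads.

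All 6 adhesion members were tested and all were higher in brain than in each other tissue. Neurexins, presynaptic receptors, were at 137, 135 and 161 FPKM for NRXN2 and 85.5, 101.04 and 102 for NRXN3. Outside brain these reached 2.11 and 0.603 FPKM. Brain stood apart for both, with differences of 6.65 (SE 0.21) and 6.46 (SE 0.16). NLGN2, the neuroligin of inhibitory synapses, was at 83.0, 74.4 and 98.4 in brain and up to 12.2 elsewhere (lung replicate 3). NLGN3, found at both kinds of synapse, was at 43.9, 53.8 and 52.5 in brain and up to 3.02. NLGN1, of excitatory synapses, passed the filter, like NRXN3, through brain alone. It was at 2.32, 4.53 and 3.33 in brain and was left with 1 read outside it, in aorta. Their differences were 4.09 (SE 0.30), 4.96 (SE 0.24) and 2.10 (SE 0.11).

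**Figure D2:**
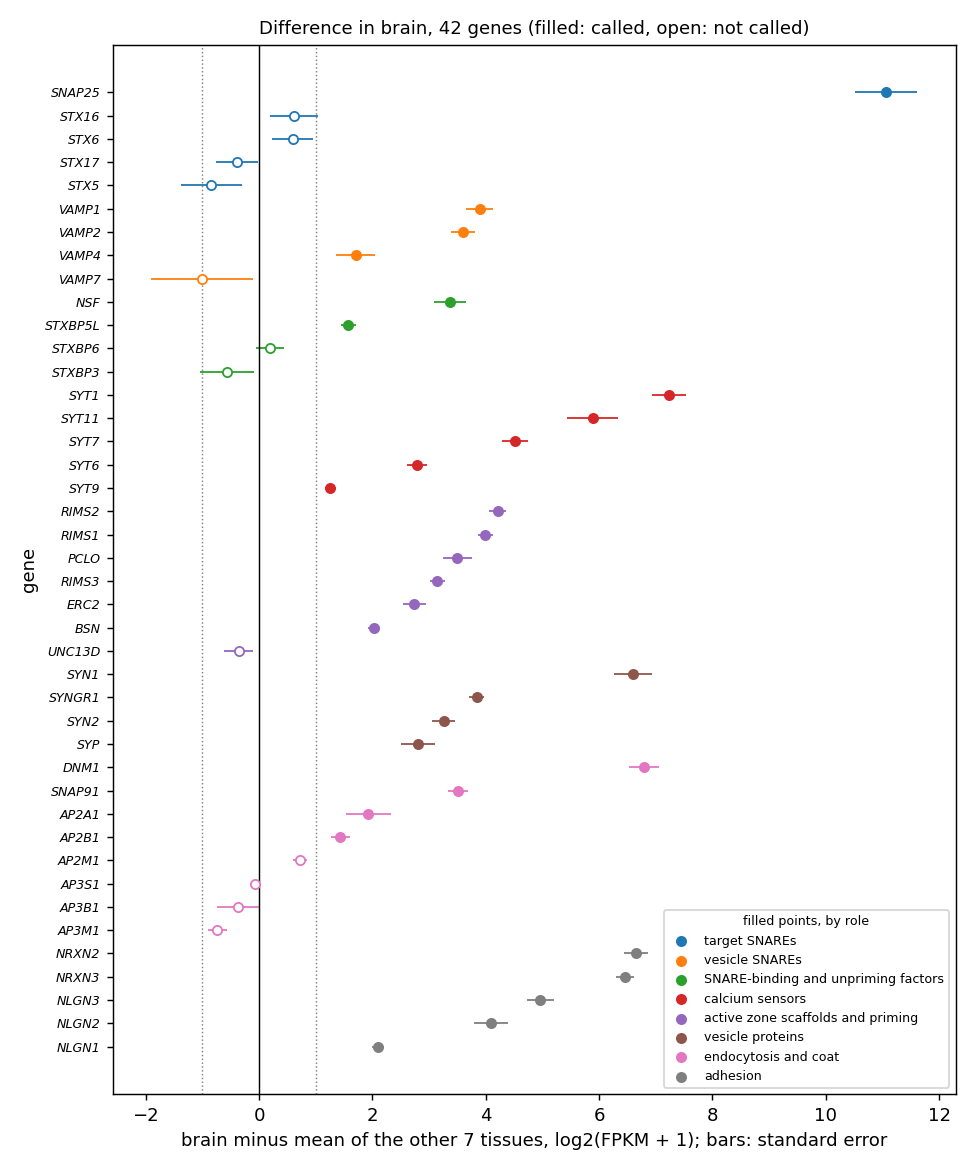
Each point is the difference in log2(FPKM + 1) between brain and the mean of the other 7 tissues for 1 of 42 of the tested members, with its standard error as a bar and colour by role. Filled points are called, dotted lines mark differences of 1 in each direction, and values run from VAMP7 at -1.004 to SNAP25 at 11.06.

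Genes of the same pathway that the rule does not name were compared in the same fit. Of 26 active zone partners and release calcium channels listed, 12 were tested, and all 12 were higher in brain, 10 of them than in each other tissue. CADPS (CAPS1), a priming factor, had the largest difference of these at 7.12 (SE 0.16), and CACNA1A, the P/Q-type channel, was at 4.50 (SE 0.34). Of 16 postsynaptic partners, 14 were higher, led by CBLN1, a bridge from neurexin to glutamate receptors, at 7.47 (SE 0.28), LRRTM2 at 6.55 (SE 0.15) and DLG4 (PSD-95) at 6.28 (SE 0.29). Without the brain libraries 4 of the 12 and 11 of the 16 passed the filter, and of these 4 and 9 were higher in brain. The medians of these 2 lists were 2.85 and 3.23, beside 2.98 over the members and -0.0244 over all genes.

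Lists with machinery that every cell uses were mixed. Of 10 clathrin and recycling partners tested, 4 were higher in brain: BIN1 (amphiphysin-2) at 6.53 (SE 0.21), CLTA at 4.89 (SE 0.32), SH3GL2 (endophilin-A1) at 3.48 (SE 0.20) and AAK1 at 1.90 (SE 0.22). CLTC, the clathrin heavy chain, was at 0.67 (SE 0.12) and HSPA8, which strips clathrin, at -0.20 (SE 0.30), neither called. Among 9 further fusion factors 1 was higher, the exocyst subunit EXOC7 at 2.33 (SE 0.27), and 1 lower, SYTL4 (granuphilin) at -1.61 (SE 0.28), whose highest level was 30.9 ± 4.37 FPKM (SD, n = 3) in stomach. The vesicle loaders SLC17A7, for glutamate, and SLC32A1, for GABA and glycine, were at 60.1, 100.2 and 83.4 and 50.6, 57.3 and 40.3 FPKM in brain, and SLC32A1 was listed at 0 in all 21 other libraries. With ATP6V0A1, a proton pump subunit, they made 3 of 5 called in that list. Without the brain libraries 8 clathrin partners, 9 fusion factors and 3 genes of this last list passed the filter. Of these, 2, 1 and 1 were higher in brain. The share higher in brain was 17.6% over all genes that passed the filter without brain, and 23.9% over all genes tested. Differences between these lists were not tested.

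**Figure D3:**
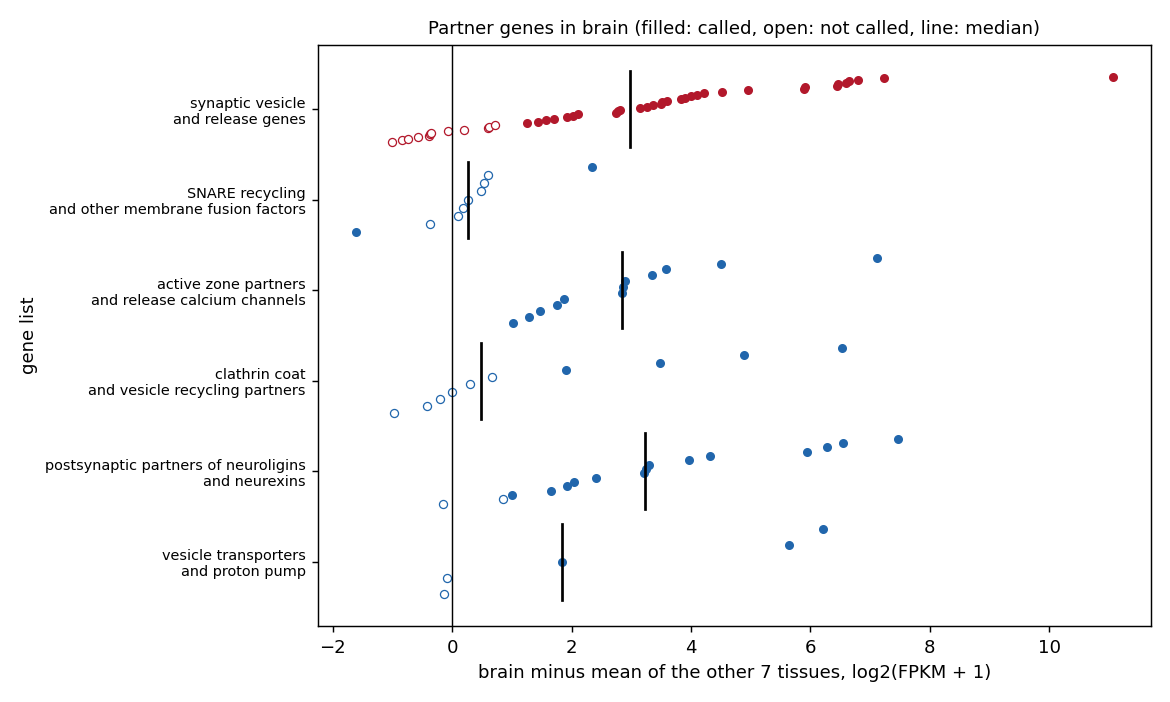
Each point is the brain difference in log2(FPKM + 1) of 1 tested gene, for the 44 members (red) and for 5 lists of pathway partners (blue). Filled points are called, open ones are not, and vertical lines are list medians, from 0.27 for other fusion factors to 3.23 for postsynaptic partners.

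Leaving brain aside, 21 of the 44 members differed among the 7 other tissues (47.7%, a moderated F-test in limma), beside 63.6% of all genes tested. Among the 27 members that passed the filter without brain the share was 20 (74.1%), beside 69.6% of such genes, so the order of the shares turns with the genes counted. Of the 44, 19 were called in at least 1 of these tissues against the mean of the other 6, and 18 of the 19 are among the 27, the exception being ERC2. Shares for single tissues are over all 44, of which 17 passed the filter only with the brain libraries counted. Only 1 of those 17 was called in these tissues, so the member shares run low. They were not computed over the 27, and are not read as above or below the shares of all genes. AP3B1, STX16, STX17, STXBP3 and STXBP6 were called in no comparison at all. Differences given for these tissues are between 1 tissue and the mean of the other 6, in log2(FPKM + 1), with brain left out.

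Stomach was higher for 3 members (6.82%, beside 7.68% of all genes): SNAP25, SYT7 and AP3S1. SNAP25, listed at 0 in 4 tissues, had a stomach difference of 3.91 (SE 0.56), adjusted p 2.15e-05. SYT7 was at 8.72, 5.58 and 8.30 FPKM in stomach, a level it shared with heart, and its stomach difference was 2.00 (SE 0.24, adjusted p 2.04e-06). AP3S1 was at 129, 138 and 140.5, above all libraries of the other 6 tissues, with a difference of 1.11 (SE 0.09, adjusted p 1.43e-08). With median-ratio or quantile scaling the AP3S1 difference was 0.96 or 0.99, just under the minimum. None was called lower, beside 4.46% of all genes. AP2M1 and VAMP4 had an unadjusted p under 0.05 in that direction, and voom called none.

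Of the 10 neuronal markers, 2 were called higher in stomach, ELAVL4 and GRIA2. The summed level of the 10 neuronal markers ran from 12.6 to 18.7 FPKM there, with 7 of 10 above 0 and ELAVL3, NEFL and RBFOX3 at 0. ELAVL4 was at 14.2, 5.87 and 6.77 FPKM. INSM1, a factor of endocrine cells and the one gene of an 11-gene neuroendocrine list found in the table, was at 19.2, 10.6 and 16.9. It was also at 2.69, 6.39 and 2.89 in spleen and at 0 in aorta. The part of nerve or endocrine cells in these members was not tested.

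Aorta was higher for 7 members (15.9%, beside 10.5% of all genes), among them SYT11, DNM1, STX5, VAMP2, NLGN2 and NLGN3. SYT11 was at 14.2, 12.4 and 6.43 FPKM there, with a difference of 1.99 (SE 0.45, adjusted p 0.00199), and DNM1 at 14.9, 19.0 and 16.1, with 1.86 (SE 0.27, adjusted p 1.78e-05). Lung overlapped aorta for DNM1, and stomach overlapped it for SYT11. VAMP2 was at 161, 165 and 167, above all libraries of the other 6 tissues, with a difference of 1.23 (SE 0.21, adjusted p 0.000122). STX5 was at 9.20, 10.1 and 7.89 FPKM, with 1.70 (SE 0.54), and its call was lost without any 1 of the 3 aorta libraries (adjusted p 0.0579 to 0.0825). The call of NLGN2 was lost without replicate 3 (adjusted p 0.0585), and NLGN3 without replicate 2, at a difference of 0.96.

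VAMP7 was the one member lower in aorta (2.27%, beside 7.39%), at 0, 7.04 and 0.913 FPKM with a difference of -2.79 (SE 0.91). That call was lost without aorta replicate 1 or 3 (adjusted p 0.171 and 0.101). Neuronal markers were highest in aorta replicate 1: the 10 neuronal markers summed to between 1.21 and 25.6 FPKM in aorta, and in replicates 1, 2 and 3 STMN2 was at 9.57, 3.46 and 0 FPKM and NEFM at 5.38, 0 and 0. Of 4 glia and Schwann cell markers tested, 2 were called higher in aorta, where the 5 in the table summed to 32.5 to 129 FPKM. The part of nerve and glia in these members was not tested. Without replicate 1 the differences of SYT11, DNM1 and VAMP2 in aorta were 1.78, 1.93 and 1.25, and all 3 were still called. Without replicates 1 and 3, which leaves 1 aorta library assumed to vary like the other tissues, SYT11 was lost (2.21, adjusted p 0.0654), and DNM1 and VAMP2 were still called.

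Lung was higher for 6 members (13.6%, beside 12% of all genes), of which 4, DNM1, NLGN2 and VAMP2 among them, were also higher in aorta. DNM1 was at 15.6, 7.98 and 14.9 FPKM in lung, with 1.39 (SE 0.27, adjusted p 0.000535). NLGN2 was at 8.07, 9.08 and 12.2, with 1.27 (SE 0.31). These contrasts share their reference tissues. VAMP2, at 135, 142 and 152, stood at the minimum with 1.003 (SE 0.21), and fell under it without any 1 of 7 libraries, lowest at 0.92 without liver replicate 2. VAMP4, with 1.22 (SE 0.34), was lost without lung replicate 1 or 2 (adjusted p 0.059 and 0.0956). STX6, on 12 lung reads with 1.02 (SE 0.37, adjusted p 0.0449), was lost without any 1 of the 3 lung libraries (adjusted p 0.0823 to 0.176) and without most single libraries of the other tissues. No member was lower in lung, beside 2.28% of all genes, with AP3S1 and SYT1 at an unadjusted p under 0.05 and SYNGR1 and SYT1 called by voom. The 10 neuronal markers summed to 4.65 to 17.9 FPKM in lung, 6 of them above 0, and their part was not tested.

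Heart was higher for SYT7 and VAMP2 (4.55%, beside 6.57% of all genes). SYT7 was at 8.90, 9.65 and 6.17 FPKM there, above 5 of the other 6 tissues and overlapping stomach, with 2.14 (SE 0.24, adjusted p 3.78e-07). The 10 neuronal markers summed to 0 to 3.32 FPKM in heart, with 7 of them at 0. The 6 autonomic and enteric neuron markers in the table summed to 26.9 to 32.0 FPKM in heart, and 1 of the 2 tested was called higher there. The part of nerve cells in the SYT7 level was not tested. VAMP2 was at 141, 139.7 and 158, with 1.04 (SE 0.21, adjusted p 0.00053), and fell under the minimum without heart replicate 3 (0.98) or liver replicate 2 (0.95). Lower in heart were 4 members (9.09%, beside 16.4%): AP2B1, AP3S1, STX5 and VAMP4. AP2B1 was at 10.3, 11.9 and 7.83 FPKM, below every other library, with -1.82 (SE 0.17, adjusted p 6.4e-08), and AP3S1 at 28.2, 26.8 and 34.5, also below every other library, with -1.40 (SE 0.09). STX5 was listed at 0 in all heart libraries, where 3 reads would have given 4.54 to 4.66 FPKM, with -2.18 (SE 0.54). VAMP4, at 1.95, 1.93 and 1.98 with -1.14 (SE 0.34), was lost with median-ratio scaling (-0.71, adjusted p 0.125), and AP3S1 fell to -0.82, under the minimum.

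Liver was higher for 4 members (9.09%, beside 9.53% of all genes), among them VAMP7, SYT1 and AP3M1. VAMP7 was at 125, 88.0 and 103 FPKM, above every other library of the study, with 3.52 (SE 0.91, adjusted p 0.00397). AP3M1 was at 50.8, 61.8 and 55.7, likewise above every other library, with 1.66 (SE 0.17, adjusted p 2.11e-07). Both genes serve endosomes and lysosomes, and neither was called in brain. SYT1 was at 9.01, 2.63 and 7.77 in liver, above every library of the other 6 tissues, with 2.48 (SE 0.30, adjusted p 1.34e-06). All 10 neuronal markers outside the set and SNAP25 were listed at 0 in all 3 liver libraries. There, 3 reads would have given 4.55 to 5.04 FPKM for SNAP25 and 2.63 to 2.91 for SYT1, so liver replicate 2 stood at that limit. Of the 6 autonomic and enteric neuron markers in the table, 1 was above 0 in liver. Where the SYT1 reads align and which cells they come from was not tested.

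Lower in liver were 5 members (11.4%, beside 15% of all genes). DNM1 was listed at 0 in all 3 liver libraries, where 3 reads would have given 3.46 to 3.83 FPKM, with a difference of -2.97 (SE 0.27, adjusted p 2.52e-08). The others were NLGN2 (-1.98, SE 0.31), VAMP2 (-1.59, SE 0.21), SYT7 (-1.40, SE 0.24) and SYT11 (-1.38, SE 0.45), the last lost without liver replicate 1 (adjusted p 0.143). Liver was the shallowest tissue, so low genes could be missed there more easily.

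Kidney was higher for 1 member, ERC2 (2.27%, beside 9.93%), at 0.443, 3.21 and 2.11 FPKM on 13 reads with 1.39 (SE 0.21, adjusted p 2.38e-05), against 1 read in the other 18 libraries outside brain. It was lower for SYT7 (-1.18, SE 0.24) and NLGN2 (-1.10, SE 0.31), 4.55% beside 6.13% of all genes. NLGN2 in kidney was lost without kidney replicate 1 or 3 (adjusted p 0.147 and 0.0795). Spleen was higher for UNC13D alone (2.27%, beside 11.1%), at 1.87, 3.82 and 0.403 FPKM with 1.25 (SE 0.26, adjusted p 0.000754). It rests on 11 reads, and lung overlapped spleen. The leukocyte markers IKZF1 and LCP1 were also above 0 in every spleen and lung library, LCP1 at 39.3, 45.1 and 28.1 and 12.7, 18.3 and 13.3 FPKM. SYT7 (-1.58, SE 0.24) and VAMP2 (-1.26, SE 0.21) were lower in spleen, 4.55% beside 11.7% of all genes, and SYT7 was listed at 0 in all spleen libraries.

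**Figure D4:**
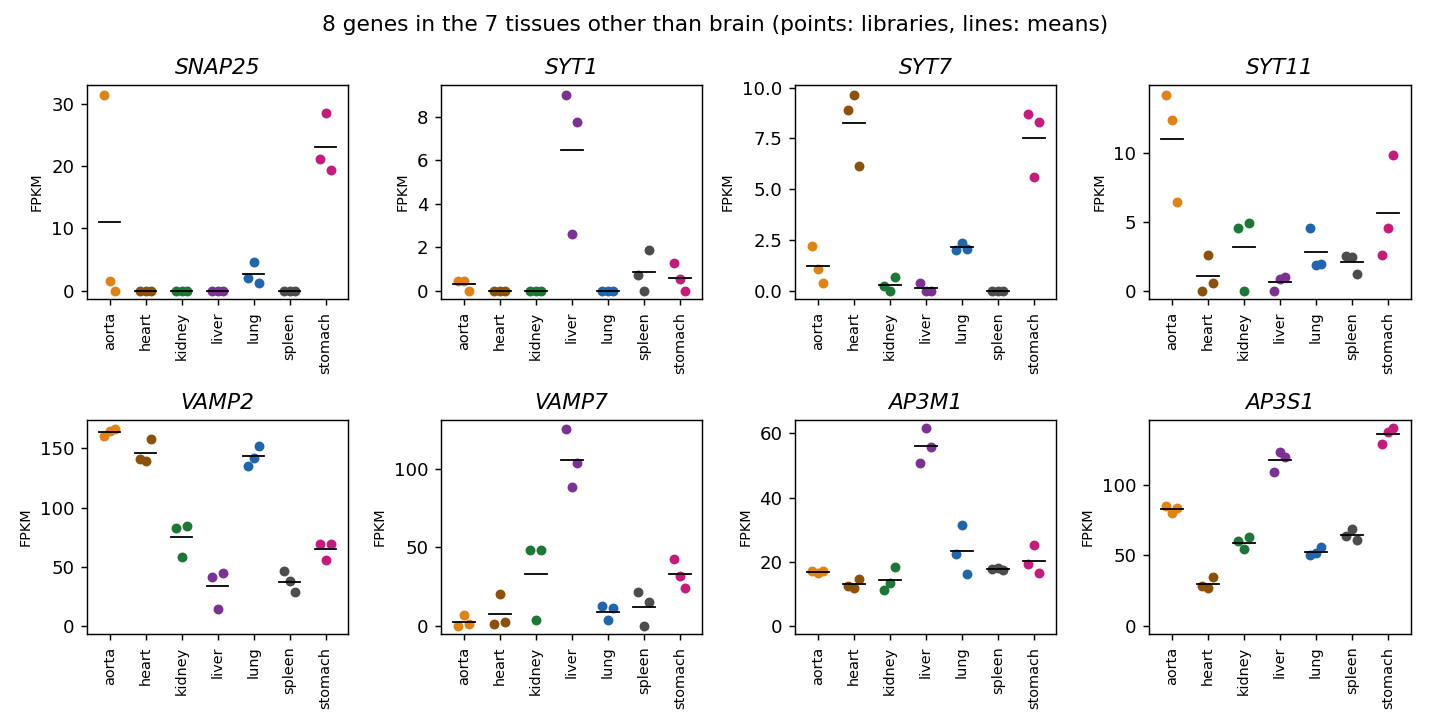
FPKM of 8 members in the 7 tissues other than brain, each point 1 library and each line a tissue mean, on linear axes. SNAP25 and SYT7 are high in stomach, SYT7 in heart too, SYT1, VAMP7 and AP3M1 in liver, AP3S1 in stomach, and 1 aorta library lies far above the other two for SNAP25.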

How the data were processed

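Expression was measured by bulk RNA-seq of total RNA (extracted with TRIzol, per the labels' protocols) in 24 libraries, grouped by the tissue and replicate number in their titles. The submitters' processing notes name fastp, HISAT2 and HTSeq and, although the animals are mice, the human build GRCh38.p13; whether the deposited table rests on it alone is not stated in the labels. How reads that fit several genes were treated, the strand setting and the annotation are not stated there, and paralogues of similar sequence are uncertain to that extent. The authors deposited FPKM values, 1 column per library, with human symbols.

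Every value was a whole multiple of what 1 read was worth in its gene and library (relative tolerance 1e-06), so read numbers were recovered for all 7493 genes. A gene above 0 in few libraries may be under-counted. The reads gave depth, limits at 0 (3 reads, counting error only) and an alternative test. On simulated data the recovery and the fit were checked.

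Values were analysed as log2(FPKM + 1), which understates the change of low genes, with limma 3.58.1 in R 4.3.3 (8 tissue means, mean-variance trend, Benjamini-Hochberg over the 4260 genes that reached 1 FPKM in 3 or more libraries). Calls required adjusted p below 0.05 together with an absolute difference of 1 or more. Alternatives changed the pseudocount, filter, scaling, variance prior, minimum difference, replicate block, libraries and test. The design text speaks of biological triplicates, but nothing says which libraries share an animal, so p-values measure the spread between these libraries.

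Named with per-library values were SNAP25, SYT1, the 2 members of each role with the largest brain difference, the 2 with the largest positive difference among those called in each other tissue, and tested SNAP, SYT, STX, STXBP and VAMP paralogues. The members, roles, markers and partner lists were chosen with earlier results of these data known. A few genes that these rules would name are not reported here, though they were in the fit and in every count.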

Additional observations from a re-analysis of the deposited data

How the results depend on the processing

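The counts of members called in brain (32), higher than each other tissue (30) and different among the 7 other tissues (21) stayed within 1.5 times in all alternatives run. Leaving out single libraries gave 23 to 33, 20 to 30 and 20 to 22; the lowest came without a brain library, when fewer members (34 or 35) passed the filter, and none of the 23 brain calls still tested was lost. Of the 32 brain calls, 28 held in every alternative that tested them; BSN, NLGN1, STXBP5L and SYT9 fell under the minimum difference with a pseudocount of 5, the last 2 with quantile normalization too. No difference of a called member changed sign. Counts in single other tissues were small and moved more. With a pseudocount of 0.1 they were 12 in heart (6 in the main fit), 8 in kidney (3), 15 in liver (9), 10 in lung (6), 6 in spleen (3) and 6 in stomach (3), and with a pseudocount of 5, 4 in aorta (8), 3 in heart, 0 in kidney, 5 in liver, 0 in lung and 1 in spleen. Without a minimum difference they were 10 in heart, 8 in kidney, 16 in liver, 10 in lung, 6 in spleen and 7 in stomach. With voom on recovered reads they were 10 in heart, 7 in kidney, 10 in lung, 12 in spleen and 5 in stomach. TPM scaling gave 6 in kidney, 6 in spleen and 5 in stomach, quantile normalization 2 in lung, and leaving out aorta replicates 1 and 3, which makes the lone aorta library vary like other tissues, 4 in aorta. Single libraries left out gave 5 to 8 in aorta (5 without replicate 2 or 3), 5 to 8 in heart, 2 to 5 in kidney (5 without aorta replicate 1), 8 to 11 in liver, 4 to 7 in lung, 2 to 4 in spleen and 3 to 4 in stomach. Of 38 calls in these tissues, 11 held in every alternative that tested them. The causes were not tested.

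Scaling moved the median brain difference of all genes from -0.0244 to 0.226 (TPM), 0.0998 (median-ratio) and -0.351 (quantile), and the share of brain calls that were higher from 69.4% to 48.2% with quantile normalization. With the replicate block, brain gave 32 calls and the among-tissue test 21, and all 70 member calls were kept. Deviations of same-numbered libraries of different tissues correlated at -0.0589 to 0.128 (median 0.0241, 2 of 84 pairs over 0.1). For 21 of 24 libraries the closest library of another tissue carried the same number. The main fit did not pair libraries by number, and whether same-numbered libraries share an animal or a batch was not tested. Depth limits the 27 members not tested, which had 1 to 54 reads each, and liver most.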
